A study of Mus musculus with 18 samples.

Results

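The 8 genes described here, Cish, Socs2, Socs3, Pim1, Bcl2, Bcl2l1, Mcl1 and Bcl6, are targets or survival partners of the signal that runs from the v-Abl kinase through STAT5. They were chosen by name, with earlier results of these data known, out of 22350 protein-coding genes annotated on the autosomes and X. All 8 were found in the mm9 annotation. Each was described by ChIP-seq peaks of cohesin, mapped through its RAD21 subunit, and of NIPBL, the protein that puts cohesin on DNA. Peaks were read within 5 kb of the annotated start, in the gene body, and within 50 kb of the gene on either side. The cells were a v-Abl transformed mouse pro-B cell line kept for 4 days in 3 uM STI-571, an inhibitor of the Abl kinase. Every group carried a JH deletion, expressed dCas9 (Cas9 without nuclease activity), held the Emu-Bcl2 transgene and was RAG2 deficient. The RAD21 libraries came from 4 groups: dCas9 control cells (n = 2), block cells that also expressed a guide RNA labelled Sg1-sgRNA (n = 2), an Ig2b wild type group (n = 3) and cells labelled Ig2b-del/del (n = 3). The NIPBL libraries came from the control (n = 2) and block (n = 2) groups. The wild type group had the same genotype label as the dCas9 control. All groups received the inhibitor, so no library shows these genes with v-Abl active, and RNA was not measured in the files used here. The labels do not say whether groups were clones or whether replicates were separate cultures, so p-values measure only the spread between these libraries.

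In normal B cell precursors, cytokine receptors for IL-7 and TSLP activate JAK kinases, which phosphorylate STAT5, and the v-Abl oncoprotein keeps STAT5 active without the cytokine. STAT5 dimers bind paired half-sites in DNA and raise genes that damp the pathway (Cish, Socs2, Socs3), a growth-promoting kinase (Pim1) and survival genes of the BCL2 family (Bcl2, Bcl2l1, Mcl1). Bcl6, a transcriptional repressor, is known to rise in B cell precursors when STAT5 signalling is lost. Cohesin slides along chromatin and halts at CTCF sites, whereas NIPBL is often found at active promoters and enhancers.

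Each list gives, for every peak, a fold enrichment that is the authors' own ratio. It was used to describe and rank peaks within a list, since the lists are not on a common scale. Where genes with higher folds in all libraries of a group are counted, the values compared are unscaled. Such counts stand beside the share of all genes. RAD21 lists held 44783 to 82776 peaks covering 11.6 to 34.4 Mb, with a median fold of 3.71 to 4.81. NIPBL lists held 63153 to 123573 peaks covering 20.3 to 29.8 Mb, with a median fold of 2.83 to 3.77. Both RAD21 dCas9 replicate 2 lists were broad, at 34.4 and 31.5 Mb against 15.9 and 23.7 Mb in replicate 1. Peak names in those lists also changed style with the replicate number, and the labels name no batch. Of the early B lineage marker genes, 9 of 10 had RAD21 and 10 of 10 had NIPBL at their starts in both controls, against 2 and 4 of 8 T cell markers and 2 and 5 of 8 myeloid markers. Over all protein-coding genes the shares were 34.3% for RAD21 and 56.5% for NIPBL. The median highest control RAD21 fold was 5.03 at early B, 6.52 at T cell and 5.78 at myeloid markers. For NIPBL it was 5.04, 3.17 and 3.04. Peaks show occupancy and not expression.

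All 8 genes had a RAD21 peak within 5 kb of the start in both dCas9 control libraries, as did 34.3% of all protein-coding genes. All 8 also had a NIPBL peak there in both control libraries, as did 56.5% of all genes. RAD21 and NIPBL peaks in every one of the 14 libraries were found at all 8 starts and at 18.6% of all genes. The members differed in which protein stood out. At Cish the RAD21 peak was among the highest of any gene and the NIPBL peak was ordinary, at Mcl1 the reverse held, and at Bcl2, Bcl2l1, Bcl6 and Socs2 both were high. The highest NIPBL peak at Bcl2 lay in the first coding exon, where the gene and the Emu-Bcl2 transgene cannot be told apart. On the Bcl2 start itself the NIPBL core had folds of 3.50 to 4.07.

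**Figure D1:**
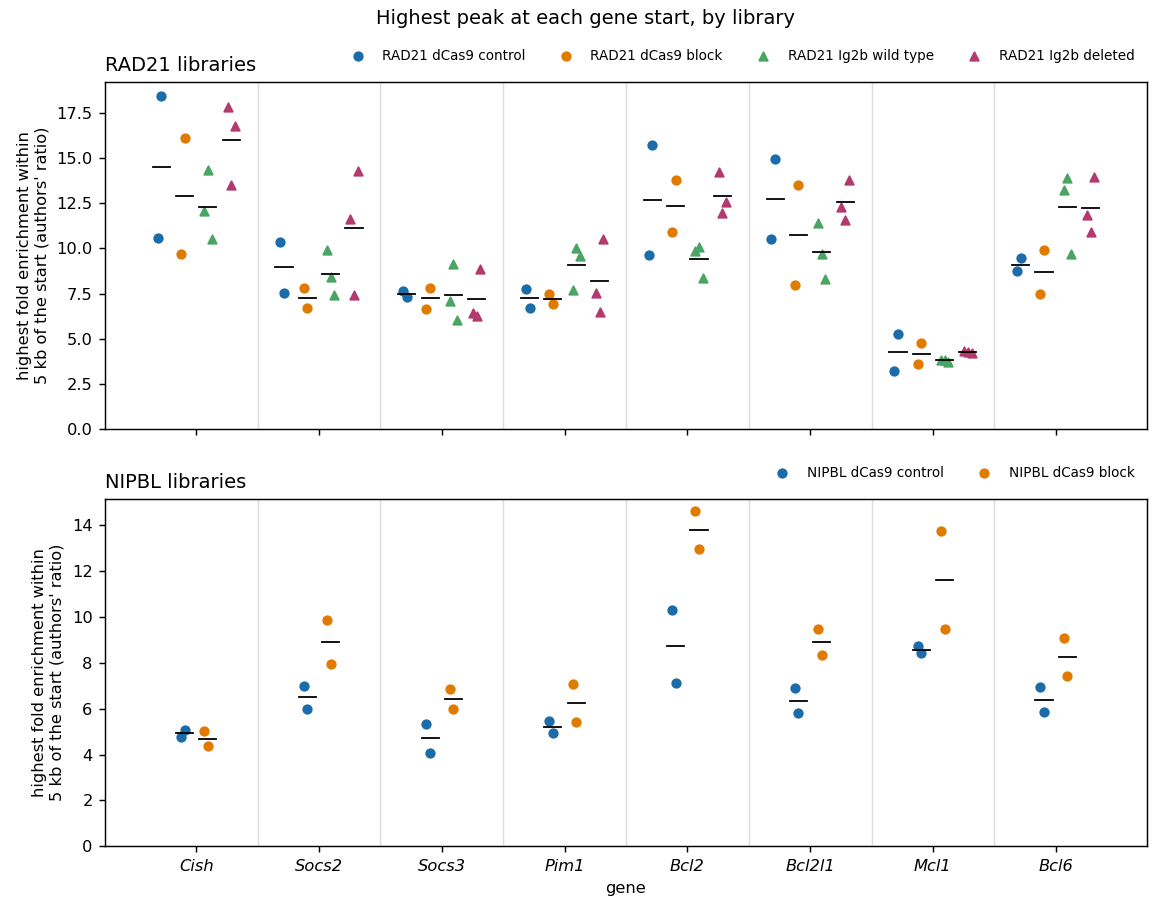
Highest fold enrichment of any called peak within 5 kb of the start (y axis, the authors' ratio) for each gene (x axis), with RAD21 libraries above and NIPBL libraries below. Points are single libraries coloured by group and black bars are group means. RAD21 values at Mcl1 lie between 3.25 and 5.28, below those of the other 7 genes, while its NIPBL values lie between 8.42 and 13.8.

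**Figure D2:**
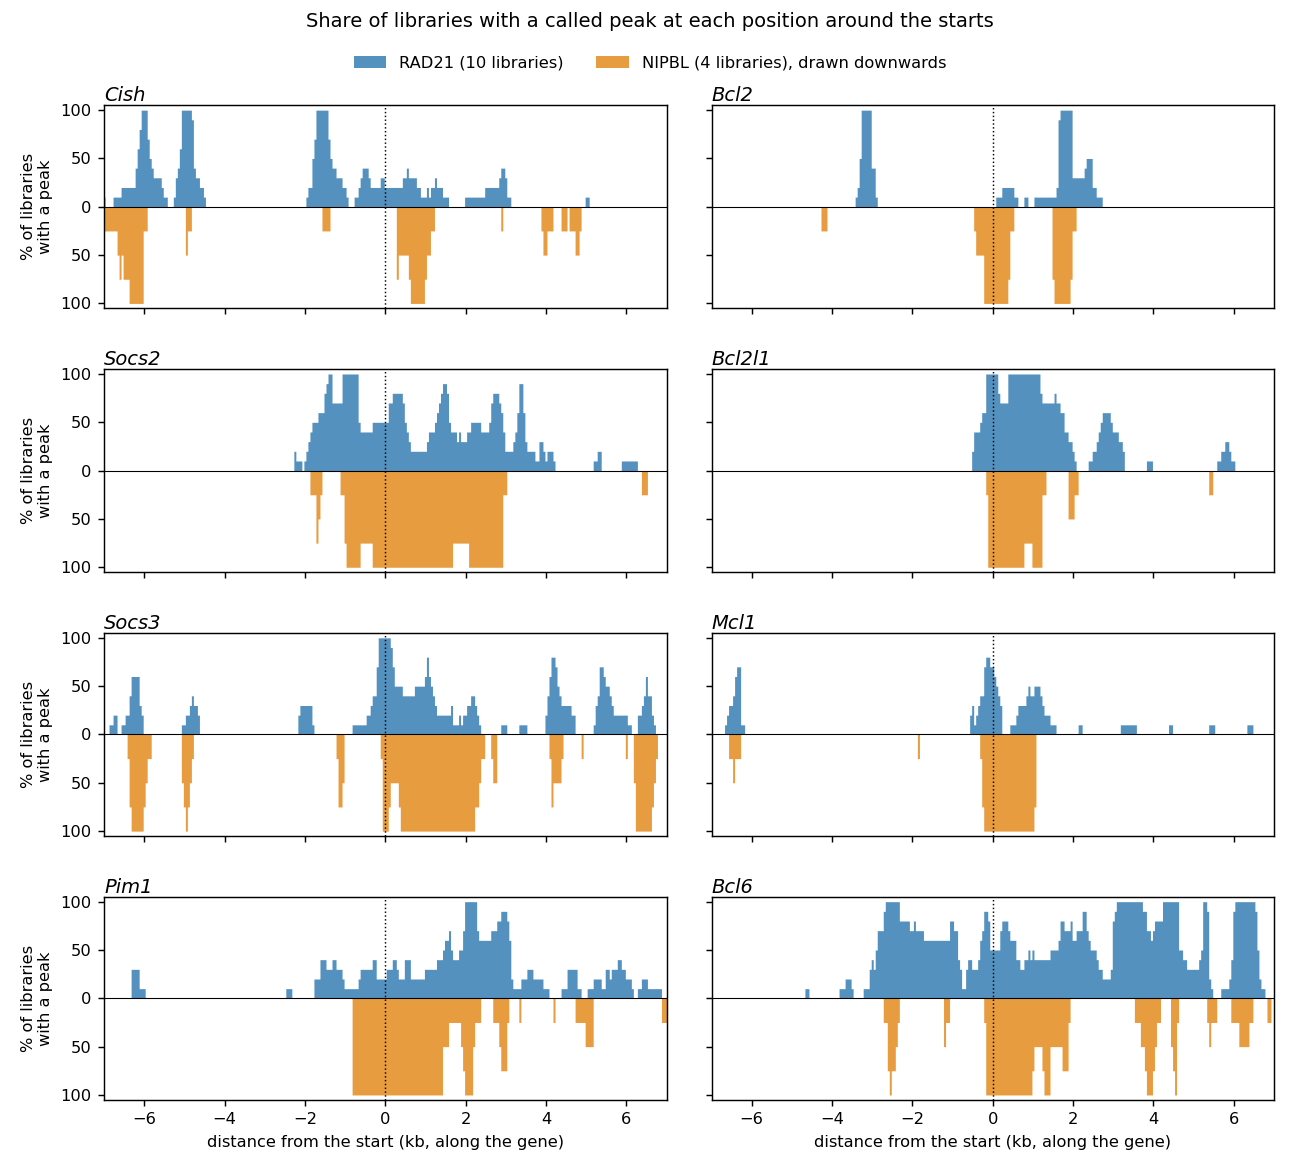
Percentage of libraries with a called peak (y axis) at each distance from the start in kb along the gene (x axis), with 10 RAD21 libraries drawn upwards and 4 NIPBL libraries drawn downwards. All 4 NIPBL libraries cover the start itself at every gene but Cish. At Cish and Socs3 they also share positions more than 5 kb from the start, near both edges for Socs3. Nearer shared positions include those 1.73 kb after the start of Bcl2 and 4.53 kb after that of Bcl6. RAD21 positions covered in all 10 libraries include those at 1.57 and 4.95 kb before Cish and 3.16 kb before Bcl2.

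To separate steady sites from those that come and go, positions covered by peaks in all 10 RAD21 libraries, or in all 4 NIPBL libraries, over at least 50 bp were taken as constant cores. There were 24742 RAD21 and 22410 NIPBL cores in the genome. The 8 loci held 44 RAD21 cores, of which 13 lay within 5 kb of the starts, 10 elsewhere in the gene bodies and 21 in the flanks. They held 41 NIPBL cores, with 18 near the starts, 3 in the bodies and 20 in the flanks. A RAD21 core within 5 kb of the start was present at 7 of the 8 genes (20.3% of all genes) and a NIPBL core at all 8 (46.3% of all genes). The gene without a RAD21 core was Mcl1.

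Cish encodes a cytokine-induced SH2 protein that binds activated receptors and blocks STAT5 recruitment. The gene lies at chr9:107198357-107205115 (mm9, plus strand). Its highest RAD21 folds were 10.6 and 18.4 in the dCas9 controls, 9.71 and 16.1 in block cells, 12.1, 14.3 and 10.5 in the wild type group and 17.8, 13.5 and 16.8 in deleted cells. The lower value of each dCas9 pair was that of replicate 1. These folds placed Cish at a median percentile of 97.4 among genes with a RAD21 peak at the start. They came from upstream cores at chr9:107196631-107196939, centred 1.57 kb before the start, and at chr9:107193265-107193552, centred 4.95 kb before it. Both also lie within 5 kb of the start of Mapkapk3, a neighbouring kinase gene. NIPBL was lower and elsewhere, at 4.78 and 5.06 in controls and 5.01 and 4.39 in block cells, a median percentile of 54.7. Its core within 5 kb of the start was centred 0.804 kb after it and overlapped neither RAD21 core. A NIPBL core just outside that window, also within 5 kb of the Mapkapk3 start, had folds of 4.56 to 7.74.

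The NIPBL core at Cish covers a cluster of the STAT motif, TTCNNNGAA, which reads the same on both strands. Cish had 9 matches within 5 kb of its start, against a median of 3 for all genes. As many as 4 of them fell within 300 bp, which 0.103% of genes (23 genes) reached. The cluster is centred 698 bp after the annotated start and before the first coding exon, which begins at chr9:107199346. That start is the outermost of 6 annotated for Cish, and the place of the cluster relative to the others was not examined. Short runs from the cluster are printed from the plus strand of mm9 with the motif matches in capitals, the first from chr9:107198985-107199014 and the other from chr9:107199093-107199122.
Cish, 642 bp after the start: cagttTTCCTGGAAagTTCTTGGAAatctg
Cish, 750 bp after the start: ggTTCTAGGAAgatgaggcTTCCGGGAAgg
All 4 NIPBL libraries and 3 of 10 RAD21 libraries had a peak over this cluster. A match is a description of letters and does not show that STAT5 was bound, which was not measured here.

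Bcl6, at chr16:23965138-23988938 on the minus strand, was the only other member with 4 STAT motifs in 300 bp, and it had 8 within 5 kb. Its cluster is centred 227 bp after the start, also before the first coding exon, under NIPBL peaks in 4 of 4 libraries and RAD21 peaks in 8 of 10. The runs are printed from the minus strand of mm9 with the matches in capitals, at chr16:23988734-23988752, chr16:23988698-23988727 and chr16:23988670-23988688.
Bcl6, 195 bp after the start: tcaaaTTCCGAGAAttgag
Bcl6, 226 bp after the start: tgaTTCTTAGAActggggTTCTTAGAAgtg
Bcl6, 259 bp after the start: gaagtTTCTAGGAAaggcc
Within 5 kb of the other members' starts the motif occurred 6 times at Bcl2l1, 5 at Socs3, 4 at Socs2 and Mcl1, and 3 at Pim1 and Bcl2, against the median of 3 for all genes. No more than 2 of these fell within 300 bp at any of the 6 genes. Over the genome it was found in the 300 bp around 9.59% of RAD21 cores, 4.36% of NIPBL cores and in 7.94% of promoters (250 bp before to 50 bp after the start).

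Socs2, a feedback inhibitor best known for limiting growth hormone signalling, lies at chr10:94847996-94879814 on the minus strand. NIPBL formed a wide block over its start: the widest peak within 5 kb was 3380 and 2681 bp in the controls and 3993 and 4039 bp in block cells. The highest NIPBL folds were 6.99 and 6.003 in controls and 9.85 and 7.97 in block cells, all at or above the 86.4th percentile of genes with a start peak. RAD21 cores lay at the upstream edge of this block, centred 0.874 and 1.39 kb before the start. RAD21 folds were 10.4 and 7.53 in controls, 7.81 and 6.72 in block cells, 9.89, 8.44 and 7.41 in wild type and 11.6, 7.44 and 14.3 in deleted cells. Socs2 also had 4 RAD21 cores inside introns, 3 of them between 19.8 and 21.2 kb after the start and the other at 27.2 kb, next to a NIPBL core at 18.4 kb. Its 8 RAD21 cores came to 6.07 per 100 kb, against a median of 1.66 for all genes. Neighbouring cores can lie in a single broad peak in some libraries, so a count of cores is not a count of separate peaks. Over each of the 3 cores between 19.8 and 21.2 kb the widest peak was 5003 bp.

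Socs3, which inhibits JAK kinases directly, lies at chr11:117827393-117831361 on the minus strand. Its RAD21 core sits on the start itself, centred 0.029 kb before it. Of the 8 promoter windows (250 bp before to 50 bp after the start), that of Socs3 alone held an exact match to the 12 bp CTCF core consensus, which 0.528% of all promoters hold. The match lies 32 bp before the start and points away from the gene, and it is shown from the plus strand of mm9 at chr11:117831364-117831423, with the match in capitals.
Socs3, 0.029 kb before the start: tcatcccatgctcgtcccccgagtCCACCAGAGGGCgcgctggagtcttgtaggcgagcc
RAD21 folds there and nearby were 7.67 and 7.33 in controls, 6.65 and 7.83 in block cells, 7.08, 9.16 and 6.03 in wild type and 6.43, 6.25 and 8.86 in deleted cells. The lowest and the highest of these were both in the wild type group, and all groups overlapped. The main NIPBL core at Socs3 spans 1842 bp, centred 1.31 kb after the start, and reaches into its only coding exon. With 10 NIPBL cores in 104.0 kb, Socs3 had 9.62 per 100 kb, more than the other members and against a median of 1.35 for all genes. Its 2 RAD21 cores, or 1.92 per 100 kb, were the fewest among the members, beside medians of 2 and 1.66 for all genes.

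Pim1, at chr17:29627757-29632390 on the plus strand, encodes a serine/threonine kinase that promotes growth and survival. NIPBL covered the promoter and the first 4 coding exons in a peak of 2225 and 2282 bp in controls and 2405 and 3207 bp in block cells. The RAD21 core was intronic, centred 2.13 kb after the start, and overlapped a small NIPBL core there. RAD21 folds were 7.77 and 6.71 in controls, 7.46 and 6.90 in block cells, 7.68, 10.0 and 9.57 in wild type and 7.52, 6.50 and 10.5 in deleted cells. The highest RAD21 signal of the locus lay downstream of the gene, at neighbouring cores 22.5 and 23.8 kb after the start, with folds of 8.20 to 19.7 and 9.04 to 16.0 over the 10 libraries. The second of these holds an exact CTCF match pointing back towards the gene, shown from the minus strand at chr17:29651534-29651593.
Pim1, 23.78 kb after the start: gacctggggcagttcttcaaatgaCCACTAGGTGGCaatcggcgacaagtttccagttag

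Bcl2, the founding inhibitor of mitochondrial cell death, lies at chr1:108434755-108610851 on the minus strand and is the longest member at 176097 bp. RAD21 folds were 9.64 and 15.7 in controls, 10.9 and 13.8 in block cells, 9.85, 10.1 and 8.35 in wild type and 14.2, 11.9 and 12.5 in deleted cells. NIPBL folds were 10.3 and 7.13 in controls and 14.6 and 12.98 in block cells, a median percentile of 98.5 and the highest among the members. The NIPBL maximum did not lie on the promoter. It lay 1.73 kb after the start, where it overlapped a RAD21 core at chr1:108608890-108609199, while the NIPBL core on the start itself had folds of only 3.50 to 4.07.

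The shared site at Bcl2 lies within the first coding exon (chr1:108608882-108609457, 576 bp). Peaks covered 313 to 576 bp of this exon in 10 of 10 RAD21 libraries and 431 to 501 bp in 4 of 4 NIPBL libraries. The other coding exon, 132 bp long and 170942 bp after the start, had a peak in 0 of 10 RAD21 and 0 of 4 NIPBL libraries. All groups carry the Emu-Bcl2 transgene, in which an immunoglobulin heavy chain enhancer drives Bcl2 in the B lineage. The labels do not give its sequence, and reads from any Bcl2 exon in it that match the mouse gene would align here, so occupancy of the gene and of the transgene cannot be told apart over this exon. The upstream RAD21 core at chr1:108613892-108614129, centred 3.16 kb before the start, had folds of 7.42 to 15.7 in the 10 libraries and no NIPBL core. It holds an exact CTCF match, shown from the minus strand at chr1:108613984-108614043.
Bcl2, 3.159 kb before the start: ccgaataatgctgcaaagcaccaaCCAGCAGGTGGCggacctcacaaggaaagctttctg
This match points into the gene. Matches with 1 position off in RAD21 cores at 169.2 kb (in an intron) and 202.5 kb (beyond the gene) point the opposite way, so that those at either end of Bcl2 face each other. Facing CTCF sites are known as frequent anchors of cohesin loops, but contacts were not measured here.

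Bcl2l1, which encodes the survival protein BCL-XL, lies at chr2:152593052-152657464 on the minus strand. Both proteins shared its promoter: RAD21 cores centred 0.035 kb before and 0.781 kb after the start overlapped NIPBL cores at 0.333 and 1.09 kb. RAD21 folds were 10.5 and 14.9 in controls, 7.96 and 13.5 in block cells, 11.4, 9.67 and 8.30 in wild type and 12.3, 11.6 and 13.8 in deleted cells. NIPBL folds were 6.89 and 5.80 in controls and 9.49 and 8.32 in block cells. The median percentiles were 93.6 for RAD21 and 88.1 for NIPBL, so neither protein stood out over the other. A further RAD21 core of similar height, with folds of 6.73 to 16.9, lay just past the 3′ end, 65.1 kb after the start, also with a NIPBL core. Beside it, an intronic RAD21 core at 63.9 kb holds an exact CTCF match, shown from the minus strand at chr2:152593531-152593590.
Bcl2l1, 63.9 kb after the start: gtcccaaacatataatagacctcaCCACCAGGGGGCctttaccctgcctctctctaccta

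Mcl1, a short-lived relative of BCL2 that lymphocytes need for survival, lies at chr3:95462643-95467099 on the plus strand. NIPBL folds were 8.73 and 8.42 in controls and 13.8 and 9.46 in block cells, in a peak 1214 to 1408 bp wide over the promoter and the start of the coding sequence. RAD21 folds at the start were 3.25 and 5.28 in controls, 3.61 and 4.76 in block cells, 3.83, 3.86 and 3.73 in wild type and 4.34, 4.27 and 4.25 in deleted cells. The percentile of Mcl1 among genes with a start peak was 97.3 for NIPBL and 34.6 for RAD21 (medians over libraries). Within 5 kb of the start no position was shared by all 10 RAD21 libraries, but 8 of 10 had a peak over the promoter at -150 and -100 bp from the start, under the NIPBL peak of all 4 libraries. The exceptions were control replicate 1 and wild type replicate 3. The highest RAD21 peak was not always the promoter one, and in the block replicate 1 library it was 56 bp long and lay 3226 bp after the start. In the control replicate 1 library the only one was 120 bp long, and it was lost in lists limited to a −log10 q of at least 3 or matched in length. The nearest RAD21 cores lay 17.2 and 18.2 kb after the start, the first with folds of 7.74 to 12.4, and 18.87 and 25.61 kb before it. The core at 18.2 kb after the start holds an exact CTCF match pointing away from the gene. The core at 25.61 kb before it holds one pointing towards the gene, shown from the plus strand at chr3:95436996-95437055.
Mcl1, 25.61 kb before the start: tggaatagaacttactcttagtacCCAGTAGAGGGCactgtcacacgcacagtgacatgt

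Bcl6 was the member with the most RAD21 at its start by length: peaks covered 4009 and 8042 bp of the window in controls, 5316 and 7074 bp in block cells, 3019, 4340 and 3149 bp in wild type and 6184, 7092 and 4399 bp in deleted cells. Its RAD21 cores flanked the promoter, centred 2.51 kb before and 3.39, 4.41, 5.28 and 6.28 kb after the start, the later ones inside introns. RAD21 folds were 8.73 and 9.49 in controls, 7.46 and 9.92 in block cells, 13.2, 13.9 and 9.69 in wild type and 11.9, 10.9 and 13.97 in deleted cells. NIPBL folds were 6.93 and 5.87 in controls and 9.11 and 7.45 in block cells, over the promoter between the RAD21 cores. The RAD21 core at 4.41 kb, which overlaps a weak NIPBL core, holds an exact CTCF match pointing back at the start, shown from the plus strand at chr16:23984425-23984484.
Bcl6, 4.41 kb after the start: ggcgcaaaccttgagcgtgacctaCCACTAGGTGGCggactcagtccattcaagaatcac

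**Figure D3:**
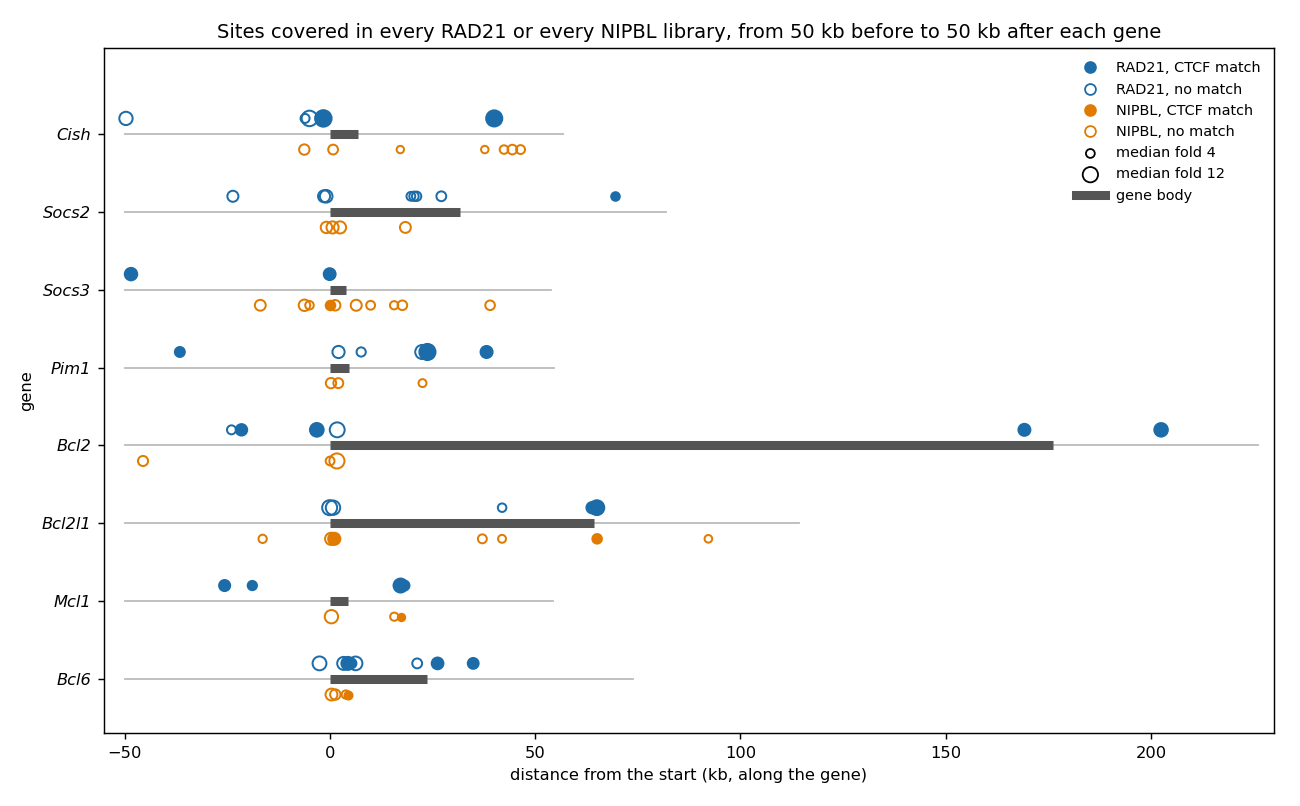
Sites covered in all 10 RAD21 libraries (blue, above each line) or all 4 NIPBL libraries (orange, below it), by distance from the start in kb (x axis) for each gene (y axis). Circle area follows the median fold and filled circles hold a CTCF match with at most 1 position off within 300 bp. Filled RAD21 circles make up 15 of 21 in the flanks, 3 of 10 in the bodies and 4 of 13 near the starts, shares whose difference was not tested.

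The CTCF consensus, searched on both strands in the 300 bp around each core, was matched exactly by 7 of 44 member RAD21 cores and 19.7% of all RAD21 cores. With at most 1 position off, a looser search added after the values were seen, it was found in 22 of 44 member RAD21 cores and 61.7% of all. By place, the member cores with such a match were 4 of 13 near the starts, 3 of 10 in the bodies and 15 of 21 in the flanks. Over the genome the share was 56.3% of RAD21 cores within 5 kb of a protein-coding start and 63% of those farther away. Of the member NIPBL cores 5 of 41 held a match, against 7.03% of all NIPBL cores. RAD21 and NIPBL cores overlapped at 12 of the 44 member RAD21 cores, and at 11.3% of all RAD21 cores. Overlapping RAD21 cores held the looser match in 38.5% of cases genome-wide and the others in 64.7%.

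Among the flanks, 5 RAD21 cores shared the same 12 letters, CCAGAAGAGGGC, which are 1 position off the consensus. They are shown, each in the orientation of the match given in capitals, because the letters after the match are also alike in several of them. The strands and mm9 places, in order, are minus at chr10:94810382-94810441, minus at chr11:117879812-117879871, plus at chr17:29591225-29591284, plus at chr17:29665900-29665959 and minus at chr3:95443773-95443832.
Socs2, 69.41 kb after the start: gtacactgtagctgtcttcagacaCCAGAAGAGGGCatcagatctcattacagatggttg
Socs3, 48.42 kb before the start: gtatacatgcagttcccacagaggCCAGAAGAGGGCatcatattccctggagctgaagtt
Pim1, 36.52 kb before the start: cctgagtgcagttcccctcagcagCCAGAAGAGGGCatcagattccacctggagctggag
Pim1, 38.19 kb after the start: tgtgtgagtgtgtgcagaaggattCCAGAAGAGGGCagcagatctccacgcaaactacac
Mcl1, 18.87 kb before the start: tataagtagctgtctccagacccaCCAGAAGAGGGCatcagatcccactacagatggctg
These letters were found on either strand around 9.73% of all RAD21 cores and 0.0848% of all NIPBL cores. Median RAD21 folds at the 5 sites ran from 3.78 at Socs2 to 7.96 at Socs3. Rodent B2 SINE repeats are known to carry CTCF sites of this kind, but no repeat annotation was used here.

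The wider pathway lists were chosen with earlier results of these data known. Of 29 other JAK-STAT genes, 13 had RAD21 and 26 had NIPBL at the start in both controls, with 10 having both proteins in all 14 libraries. The highest control RAD21 folds (medians) in this list were 11.5 at Socs7, 10.6 at Socs4 and 10.6 at Stat6, and the highest NIPBL folds were 8.09 at Flt3, a cytokine receptor kinase of early progenitors, and 7.78 at Jak3, the kinase of the common gamma chain. Stat5a and Stat5b had NIPBL at 6.42 and 5.20, and a RAD21 peak in control replicate 2 (5.25 and 3.62) but none in control replicate 1. Over the 10 RAD21 libraries, 7 had a peak at Stat5a and 5 at Stat5b. Of 19 other BCL2 family genes, 7 had RAD21, 14 had NIPBL and 5 had both in all 14 libraries. The highest RAD21 folds there were 13.04 at Bak1 and 11.2 at Bax, the effectors that permeabilize mitochondria, and the highest NIPBL folds were 9.35 at Bcl2l11 and 8.57 at Bmf, death activators of the BH3-only group. Of 12 genes known as BCL6 partners or counterparts, 6 had RAD21, 12 had NIPBL and 5 had both throughout, led by Bcl6b at 13.4 for RAD21 and Tbl1xr1 at 11.7 for NIPBL. Among 10 housekeeping genes the counts were 6, 10 and 5, with Gapdh at 12.1 and Polr2a at 10.2 for RAD21, and Actb at 9.78 for NIPBL. The median highest control fold over the 8 members was 9.03 for RAD21, against 6.54 over the 7655 genes with such a peak, and 6.37 for NIPBL, against 4.45 over 12621 genes.

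Cish had the highest median percentile of start fold over the 14 libraries among the members, at 96.2. As 10 of the 14 are RAD21 libraries, this is mainly a RAD21 rank, and its NIPBL median percentile of 54.7 was the lowest of the 8. The genes whose percentiles lay nearest to its own, library by library, were Fam38a (a mean absolute difference of 3.26 percentile points over 14 libraries), Ccnd2, encoding cyclin D2 (3.96), and Cndp2 (3.98). Each had high RAD21 and middling NIPBL, with Ccnd2 at median percentiles of 98.95 and 48.7.

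The block comparison sets dCas9 cells that expressed the guide labelled Sg1-sgRNA against dCas9 control cells. The 8 genes lie on other chromosomes than the Igh locus, and for them the comparison describes how called peaks differed between these libraries. For RAD21 no member passed the test between block and control, with 2 libraries in each group and large standard errors. Peaks covered 1102 and 3976 bp of the Cish start window in controls and 1639 and 3126 bp in block cells, and in each pair the larger value was that of replicate 2. The limma estimates for the 8 starts ran from 0.01 (Bcl2l1, SE 0.56) to 0.41 (Socs2, SE 0.83) on the log2 scale, where the median of all 5545 genes tested was 0.11. The adjusted p was 1 for every member, 0% of genes were called (0 of 5545, and 0 with an unadjusted p under 0.05). Start windows of the groups overlapped at all 8 members, whereas 4.65% of genes lay wholly higher and 1.03% wholly lower in block cells. Within replicate number 1 all 8 starts had more covered sequence in the block library, by 0.10 (Bcl2) to 0.85 (Socs2) with a median of 0.30 over all genes. Within number 2 the differences ran from -0.30 (Cish) to 0.20 (Bcl2) with a median of -0.09, so that 6 of the 8 genes changed sign between the numbers. In the gene loci, the estimates were 0.05 (Socs3) to 0.48 (Cish), with 0 of 17589 genes called by limma (0 at an unadjusted p under 0.05) and a median of 0.16.

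**Figure D4:**
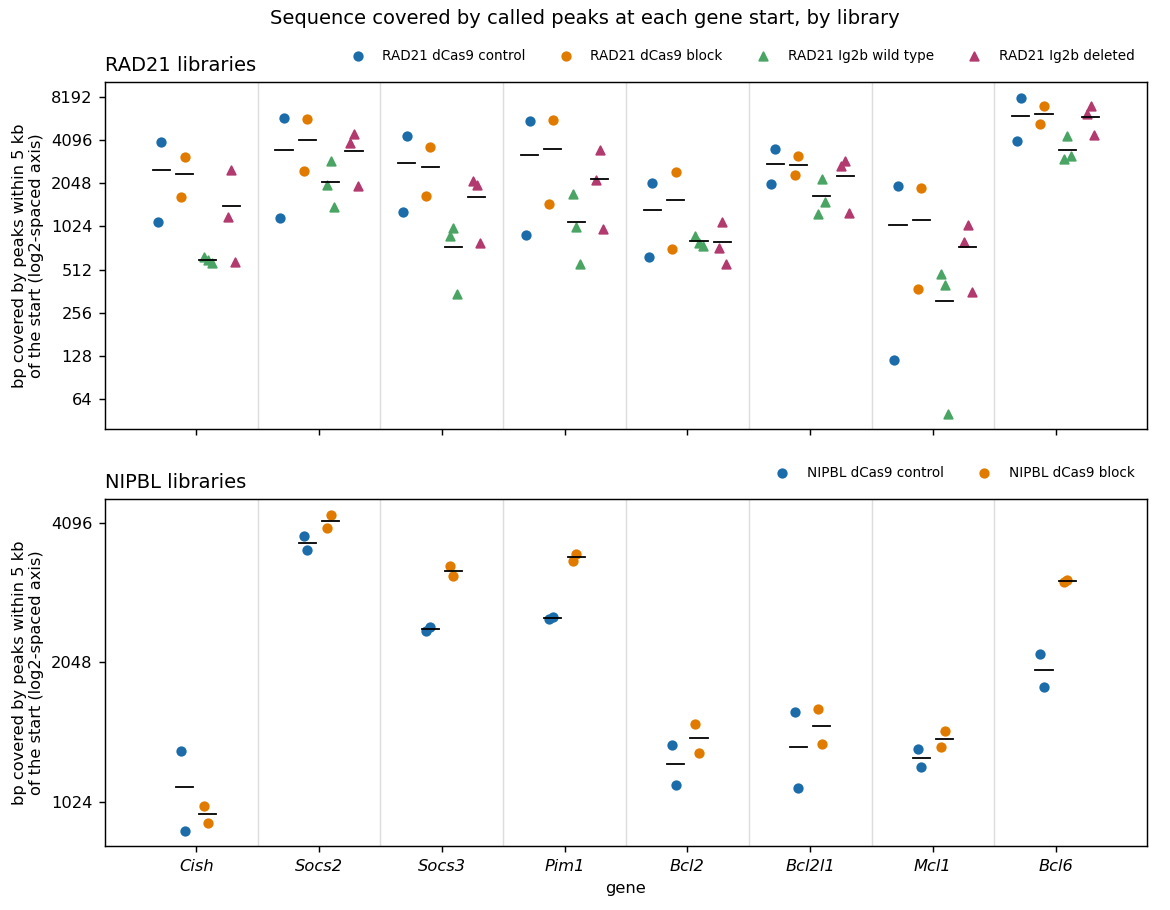
Length of sequence covered by called peaks within 5 kb of each start (y axis, bp on a log2-spaced axis) for each gene (x axis), with RAD21 libraries above and NIPBL libraries below. Points are single libraries and black bars are group means. In the RAD21 dCas9 groups the upper point of each pair is replicate 2. In the NIPBL panel the block points of Socs2, Socs3, Pim1, Mcl1 (narrowly) and Bcl6 lie above the control points, as they do for 47.8% of genes tested.

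For NIPBL at the starts no member passed the test across all genes, and the differences between block and control cells lay above the median of all genes at 3 of the 8 members, Bcl6, Pim1 and Socs3. Peaks covered 2136 and 1813 bp of the Bcl6 window in controls and 3056 and 3092 bp in block cells. At Pim1 they covered 2541 and 2564 bp against 3399 and 3520 bp, and at Socs3 2392 and 2446 bp against 3308 and 3153 bp. At these genes the groups did not overlap. The log2 differences were 0.53 ± 0.12 (SE) at Bcl6 (limma adjusted p = 0.277), 0.38 ± 0.11 at Pim1 (adjusted p = 0.319) and 0.35 ± 0.11 at Socs3 (adjusted p = 0.324), with n = 2 in each group. The other 5 starts lay between -0.12 (Cish) and 0.14 (Socs2). Over all 9194 genes tested 0% were called, and the median difference was 0.17. At an unadjusted limma p under 0.05, 1283 genes (14%) were higher in block cells and 27 (0.294%) lower, and Bcl6, Pim1 and Socs3 were among the higher ones. In the start window, 5 of 8 members were higher in both block libraries than in both controls, as were 47.8% of genes.

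In the wider NIPBL loci all 8 members had more covered sequence in both block libraries than in both controls, as did 41.1% of genes. Bcl2l1 was at 4626 and 3331 bp in controls and 7302 and 8189 bp in block cells, a log2 difference of 0.89 ± 0.28 (limma adjusted p = 0.597). Bcl6 differed by 0.71 ± 0.27 and Cish by 0.63 ± 0.30, and Bcl2 by only 0.14 ± 0.26. None of 18430 genes was called by limma, 1179 (6.4%) were higher and 176 (0.955%) lower at an unadjusted p under 0.05 (Bcl2l1 and Bcl6 among the higher), and the median over all was 0.24. The highest NIPBL fold at the start was higher in both block libraries at 6 of 8 members, all but Cish and Pim1, and at 57.6% of all genes. The block lists differed most from each other in length, at 63153 peaks in replicate 1 and 123573 in replicate 2. With each list cut to 63052 peaks, no member was called by limma at the starts or in the loci. The part of list length in the values above was not tested further.

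RAD21 in Ig2b deleted cells was compared with wild type, again at loci away from Igh. At Bcl6 peaks covered 3019, 4340 and 3149 bp in wild type and 6184, 7092 and 4399 bp in deleted cells, groups that did not overlap, with a log2 difference of 0.67 ± 0.24 (limma adjusted p = 0.405). The other estimates at the starts were 0.76 ± 0.36 at Socs3, 0.71 ± 0.44 at Pim1, 0.68 ± 0.37 at Cish, 0.60 ± 0.32 at Mcl1, 0.58 ± 0.35 at Socs2 and 0.35 ± 0.32 at Bcl2l1. Bcl2 was the only member with a negative estimate, at -0.04 ± 0.20, and differences between genes were not tested. No gene of 2630 was called by limma (0%), and the median over all genes was 0.37. At an unadjusted p under 0.05, 287 genes (10.9%) were higher and 7 (0.266%) lower in deleted cells, and Bcl6 was the only member among them. Bcl6 was the only member whose start windows did not overlap (17.1% of genes did so in this direction).

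Deleted replicates 1 and 2 lay above replicate 3 at all 8 starts, and their lists covered 18.2 and 25.1 Mb against 11.9 Mb. Without deleted replicate 3, 3075 genes were called in the gene loci, against 0 of the 15477 tested with all libraries. The filter on covered bp was applied anew to the libraries left, so the number tested can differ from 15477. Among the 3075 were 6 members: Socs3 (1.23, adjusted p = 0.0319), Mcl1 (1.01, adjusted p = 0.0404), Cish (1.00, adjusted p = 0.0431), Pim1 (0.99, adjusted p = 0.0441), Socs2 (0.88, adjusted p = 0.0379) and Bcl2l1 (0.88, adjusted p = 0.0395), all by limma. The 3075 genes were the most called in these loci by any fit that left out 1 library. The wild type lists covered 14.2, 15.2 and 11.6 Mb. The part of list length in these calls was not tested. With all libraries the locus differences ran from -0.05 ± 0.27 at Bcl2 to 0.74 ± 0.40 at Socs3, with a median of 0.32 over all genes. At an unadjusted limma p under 0.05, 1078 genes (6.97%) were higher and 34 (0.22%) lower, with no member among them. The highest start fold was higher in all deleted than in all wild type libraries at Bcl2, Bcl2l1 and Mcl1, or 3 of 8 members, and at 37.2% of genes.

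**Figure D5:**
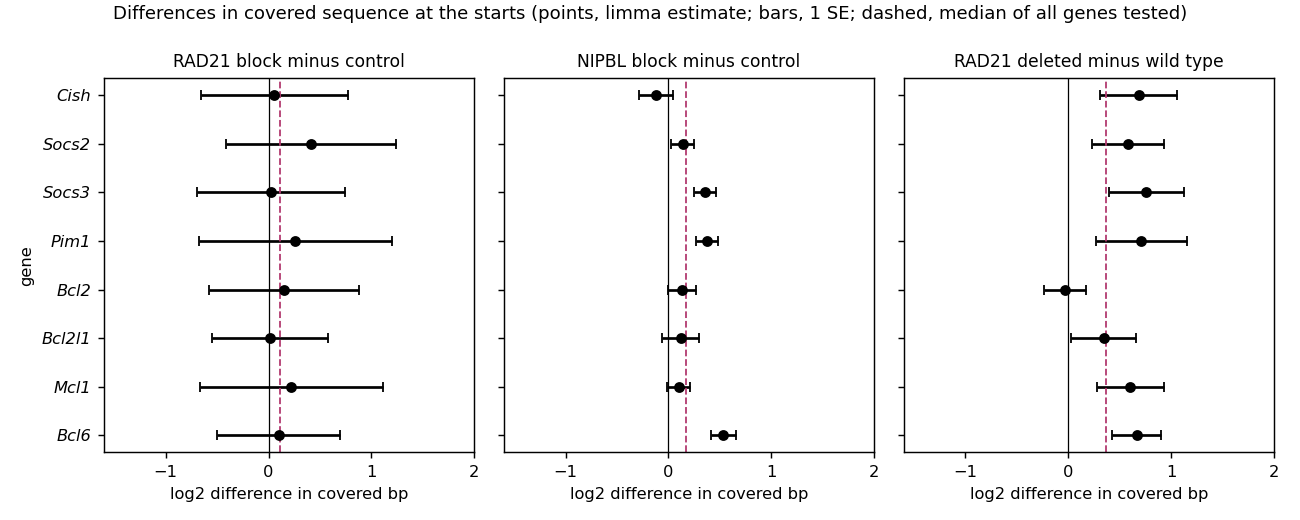
Differences in sequence covered by peaks at the starts (x axis, log2) for each gene (y axis) in the 3 comparisons. Points are limma estimates, bars are 1 SE and the dashed line is the median of all genes tested (0.11, 0.17 and 0.37). No member passed the test across all genes, and Bcl2 lies at -0.04 in the right panel, below the dashed line.

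Peaks present in every library of a group and in none of the other were few in these loci and low in fold. For RAD21, 4 of 198 regions (2.02%) differed between block and control, against 1.43% of all regions in the genome. Of these, 3 were gained in block cells, at 4.63 kb after the Pim1 start, 23.2 kb after that of Socs2 and 30.9 kb after that of Mcl1, near the start of Adamtsl4 (1.15% of all regions), and 1 was lost, 2.17 kb before Socs2 (0.278%). Their folds were 3.08 to 4.19, against 6.50 or more at the core in the Pim1 intron. For NIPBL, 14 of 244 regions (5.74%, genome 4.13%) differed, 12 gained (2.48%) and 2 lost (1.65%). The gained ones included a region 1.15 kb before Bcl6, with folds of 3.50 and 3.88, and 4 in the Bcl2l1 locus, 2 of these near the starts of Id1 and Cox4i2. The lost ones lay 35.8 kb before Socs3 and 18.1 kb after the start of Mcl1. For RAD21 in deleted against wild type cells, 1 of 154 regions (0.649%, genome 1.12%) differed, a gain 31.3 kb after the Pim1 start and near that of Gm17657, with folds of 3.30 to 4.13 (0.931% of all regions were gained and 0.191% lost).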

How the data were processed

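RAD21 and NIPBL ChIP-seq peak lists of 14 libraries in 6 groups were used. The 4 inputs were not used here. The submitters' processing notes name Bowtie2 2.2.8, SAMtools 1.8, MACS2 (version and settings not given in the sources used here) and the mm9 build. Lists were per library. The authors deposited a fold per peak, a ratio over background, together with −log10 p and −log10 q. The score deposited by the authors, 10 times −log10 q, was not used. Per the peak names deposited by the authors, a control library was used for the dCas9 lists of both proteins, and none for the Ig2b lists, which had duplicates removed. Read depth is unknown, so no counting interval is given.

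Genes were those of GENCODE vM1 on mm9 (19 autosomes and X), each with its outermost annotated start. Covered bp is the union of called peaks. Genes with a mean of at least 500 bp were tested on log2(bp + 500) by limma (version 3.58.1, R 4.3.3; two-sided, Benjamini-Hochberg over all genes tested, adjusted p under 0.05), without normalization between lists, after the script had been tested on simulated data. Regions were peaks merged over the libraries compared at an overlap of at least 1 bp. The remaining scripts ran in Python 3.11.15 (numpy 2.4.6, pandas 2.3.3, matplotlib 3.10.9). Motifs were searched and sequences read in the mm9 genome, within whose chromosome ends all peaks lie.

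The text names all 8 members, the 2 to 4 genes of highest fold per list, the 3 genes nearest in pattern and genes starting within 5 kb of a described peak. Stat5a and Stat5b were named after their values were seen. Members, lists and tests were chosen with earlier results of these data known. Alternatives were a replicate block, lists matched in length, −log10 q of at least 3, quantile normalization, other windows and offsets, and leaving out each library.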

Additional observations from a re-analysis of the deposited data

How the results depend on the processing

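RAD21 presence in both controls fell from 8 to 7 members, without Mcl1, at a −log10 q of at least 3 and with lists matched in length, and NIPBL presence was 8 in all settings run. Counts of called genes and regions moved with list settings and single libraries. The 0 genes called at the starts became 35 for NIPBL at a −log10 q of at least 3, and 28 (Bcl6 among the members) at that limit and 1 with lists matched in length for deleted against wild type. In the gene loci of deleted against wild type it became 17 with lists matched in length, 22 at a −log10 q of at least 3, 147 with quantile normalization and 2 with 100 bp added. Where covered bp or libraries changed, the filter on covered bp was applied anew, so the number of genes tested can differ between settings. Leaving out each library gave 0 to 154 genes for the NIPBL loci, the most without block replicate 2 (98 without block replicate 1), and 0 to 3075 for the deleted loci. Where 1 library was left in a group, limma took it to vary like the other group. With the replicate block 0 genes were called in each of the 6 fits. Same-numbered libraries correlated over genes at the starts by 0.77 for RAD21 dCas9, -0.06 for NIPBL and 0.02, 0.18 and 0.21 for Ig2b. Not every Ig2b library correlated best with its own number, and the numbers were not taken as pairs in any main fit. In the main RAD21 dCas9 fit the difference shared by same-numbered libraries thus counts as spread, which left little room for a call. Gained or lost member regions numbered 2 (RAD21 block), 3 (NIPBL block) and 2 (deleted) at a −log10 q of at least 3. For deleted they were 0 with lists matched in length and 2 at 50% overlap. Without each library in turn they ranged from 18 to 38, 47 to 78 and 1 to 9, since a group of 1 or 2 libraries is met more easily. NIPBL cores at the starts fell from 18 to 11 at a −log10 q of at least 3, a setting chosen after seeing the data, and all 8 members kept at least 1. Of 611 alternative member estimates 65 had another sign than the value reported, 27 at the starts and 19 in the loci being RAD21 block against control, and no member was called there. The cause of these shifts was not tested. The number of libraries, 2 or 3 a group, and the unknown depth limit what could be called.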
